A study of Mus musculus with 2 samples.

Results

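Voltage-gated calcium channel genes were followed through the cell types of the P30 mouse retina with and without Ptbp1. The 10 genes, of 25778 in the count table, were taken from a list: the pore genes Cacna1f, Cacna1d, Cacna1a and Cacna1c, the α2δ genes Cacna2d1, Cacna2d2, Cacna2d3 and Cacna2d4, the β subunit gene Cacnb2, and Cabp4. Of these, Cacna2d2 was chosen by a measured value, its higher level in Müller glia (MG) of the Ptbp1-KO library, so its MG values are a description and support nothing. All 10 genes were in the table and had UMIs in both libraries.

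The data came from 2 droplet single-cell libraries of dissociated retina, 1 from a mouse labelled Chx10Cre (Ptbp1-Ctrl) and 1 from a mouse labelled Chx10-Cre;Ptbp1lox/lox (Ptbp1-KO), both 30 days old, with no treatment named. Both animals carried Chx10-Cre, a transgene with Cre recombinase in retinal progenitors, so recombination in the KO preceded the birth of the neurons and MG and was not specific to one cell type. With 1 mouse and 1 library per genotype, no difference below has a replicate check, no test was possible, and animal, library and genotype cannot be told apart. Levels are given in CPM, for which UMIs were added up over the cells of one type in one library and scaled to 1000000, and every bracketed range is a 95% interval for counting error only.

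A voltage-gated calcium channel is built around a pore-forming α1 subunit, which opens on depolarisation, with a cytosolic β subunit and an extracellular α2δ subunit that set its delivery to the membrane and its gating. In photoreceptors and bipolar cells (BC) the channels sit at ribbon synapses, where sustained calcium entry drives glutamate release. Cacna1f encodes Cav1.4, the pore of photoreceptor terminals, and with Cacna2d4 and Cabp4 it is among the genes mutated in inherited retinal disorders of photoreceptor synaptic transmission.

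The Ptbp1-Ctrl library held 16421 cells and 32758836 UMIs, and the Ptbp1-KO library 14522 cells and 35328593 UMIs. The median UMIs per cell were 1.18 to 1.51 times as high in the KO in rods, cones, BC, amacrine cells (AC) and MG, with the largest ratio in AC. Ptbp1, the targeted gene, was at 13.8 to 49.8 CPM in these 5 types in Ptbp1-Ctrl and at 0.0977 to 1.18 CPM in Ptbp1-KO. Rod markers were found in every other type, at a median of 13.0% to 24.8% of their rod level in cones, BC, AC and MG, which sets the level below which a rod gene in those types could not be told from rod RNA. The 124 and 97 retinal ganglion cells (RGC) carried rod markers at 60.7% and 67.8% of their rod level and the horizontal cells (HC) numbered 17 and 7, so neither type was compared between libraries. The 2 libraries shared 63 cell barcodes. The study's methods describe female mice, whereas both libraries held transcripts of the Y-linked gene Uty (6164 and 7085 UMIs) and almost none of Xist (5 and 6 UMIs).

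The 10 genes lay on 8 chromosomes of mm10. Cacna1d (chr14:30039939-30491455, minus strand) and Cacna2d3 (chr14:28904943-29721864, minus strand) were on the same chromosome, and Cacna1c (chr6:118587240-119196418, minus strand) and Cacna2d4 (chr6:119236526-119352407, plus strand) were neighbours transcribed away from each other. Their annotated spans ran from 8611 bases for Cabp4 to 816922 bases for Cacna2d3. Cacna2d2 (chr9:107399612-107529343, plus strand) overlapped 2 antisense genes, Gm17141 and Gm17118, and Cabp4 (chr19:4135423-4144033, minus strand) overlapped Gpr152 on the other strand. Whether intron reads were counted was not given in the sources used here, so CPM of long genes such as Cacnb2 (384821 bases) and Cacna2d3 may hold intron as well as exon reads. Whether the counting used strand was not stated, so reads of a gene and of its antisense partner may not be told apart.

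The upstream sequences of a photoreceptor gene and of the α2δ genes that divided the BC clusters are shown because their base composition differed. RefSeq promoter windows (GRCm38.p6, 250 bases before the start) were at hand for 7 of the 10 genes. Each is read 5′ to 3′ on the gene's own strand, ends before the first annotated exon base, and has each CG dinucleotide in capitals. They cover chrX:7606853-7607082 (plus strand), chr5:15934441-15934690 (plus strand) and chr14:29721865-29722114 (minus strand).
Cacna1f: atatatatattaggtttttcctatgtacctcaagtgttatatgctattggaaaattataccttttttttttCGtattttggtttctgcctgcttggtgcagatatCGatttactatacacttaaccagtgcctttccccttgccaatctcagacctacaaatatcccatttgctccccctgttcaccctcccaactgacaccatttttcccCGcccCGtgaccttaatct
Cacna2d1: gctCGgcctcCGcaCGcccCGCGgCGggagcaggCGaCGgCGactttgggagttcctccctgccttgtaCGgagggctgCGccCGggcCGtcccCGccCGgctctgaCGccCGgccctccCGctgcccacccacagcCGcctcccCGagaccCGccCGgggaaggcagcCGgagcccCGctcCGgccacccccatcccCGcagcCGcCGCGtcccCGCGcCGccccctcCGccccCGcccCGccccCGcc
Cacna2d3: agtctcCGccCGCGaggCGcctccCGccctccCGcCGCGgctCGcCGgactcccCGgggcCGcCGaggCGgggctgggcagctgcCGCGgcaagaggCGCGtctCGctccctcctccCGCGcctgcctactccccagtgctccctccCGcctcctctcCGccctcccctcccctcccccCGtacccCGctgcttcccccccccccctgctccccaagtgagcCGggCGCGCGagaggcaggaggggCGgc

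The Cacna1f window had 41.6% G and C with 4 CG dinucleotides, below the medians of 52.4% and 6 over all 32841 windows. The Cacna2d1 window had 82.4% G and C with 36 CG dinucleotides, and the Cacna2d3 window 80.0% with 30. Of the 2 Cacna1d windows, one had 86.4% G and C with 50 CG dinucleotides and the other 39.6% with 2. The letters TAATCC, a core bound by the photoreceptor factors Crx and Otx2, were searched on both strands and were in none of the 11 windows of these genes, against 6.25% of all windows of the same length. TAATTA, a common homeodomain core, was likewise in none of the 11, against 4.84% of all windows. Such matches describe letters only.

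Cacna1f was highest in rods and cones, lower in BC and lowest in AC and MG among the 5 large types. In rods it was at 225 CPM (217 to 233) in Ptbp1-Ctrl and 256 (248 to 265) in Ptbp1-KO, and in cones at 182 (162 to 203) and 221 (197 to 247). Rods lay above cones within each library, though the cones of Ptbp1-KO were level with the rods of Ptbp1-Ctrl, and both types lay above BC, at 124 and 126 CPM. AC held 47.5 and 44.1 CPM and MG 38.1 and 35.0. The AC level was 21.1% and 17.2% of that in rods, beside 17.7% and 16.5% for rod markers in AC. The MG level was 16.9% and 13.7% of that in rods, close to the 15.5% and 13.0% at which rod markers stood in MG, so it could not be told from rod RNA. Among the 10 BC clusters of the deposited annotation Cacna1f ran from 86.2 to 185 CPM in Ptbp1-Ctrl and from 87.6 to 203 CPM in Ptbp1-KO, lowest in cluster 5 and highest in cluster 20 in both. Of 17 and 7 HC, none and 2 had a UMI, and a count of 0 in Ptbp1-Ctrl allows up to 27.1 CPM if taken as 3 counts.

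**Figure D1:**
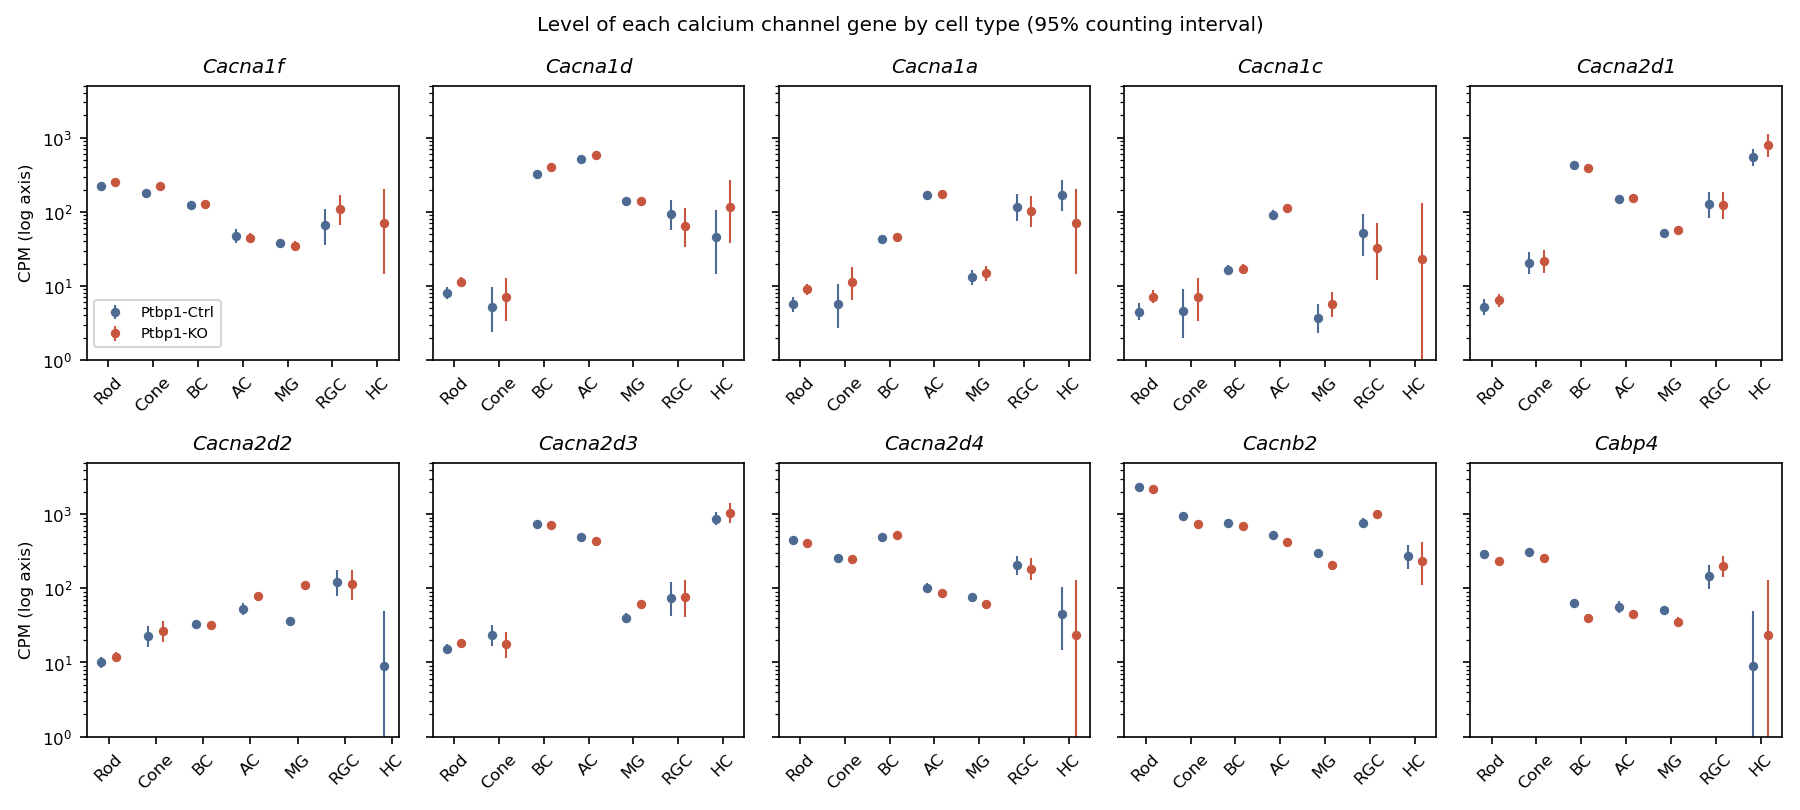
Level of each gene in CPM (log axis) in the 7 deposited cell types, with Ptbp1-Ctrl in blue and Ptbp1-KO in red. Bars are 95% Poisson intervals of the counts, cut off at the lower edge of the axis, and HC points at 0 are not drawn. Cacna1f, Cacnb2 and Cabp4 were high in rods and cones, Cacna1d, Cacna2d1 and Cacna2d3 in BC and AC. Cacna2d2 in MG stood at 36.4 and 111 CPM.

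Cacna1d, which encodes the related L-type pore Cav1.3, had the opposite pattern. It was highest in AC, at 522 CPM (491 to 555) in Ptbp1-Ctrl and 585 (561 to 609) in Ptbp1-KO, followed by BC at 328 (316 to 339) and 405 (393 to 418) and MG at 139 (129 to 149) and 142 (132 to 153). AC, BC and MG did not overlap. In rods it stood at 8.13 and 11.3 CPM, or 2.48% and 2.79% of its BC level, where BC markers stood at a median of 2.61% and 2.87%, so the rod level was at that of BC markers found in rods. The MG level was 42.3% and 35.0% of that in BC and 26.5% and 24.3% of that in AC, far above the medians of 5.50% and 4.89% for BC markers and 1.40% and 1.42% for AC markers in MG. All 3 MG clusters carried it, from 123 to 235 CPM in Ptbp1-Ctrl. Between BC clusters it varied 3.27-fold in Ptbp1-Ctrl, from 177 CPM in cluster 21 to 578 in cluster 20.

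The pores Cacna1a (Cav2.1, the P/Q-type channel of most conventional synapses) and Cacna1c (Cav1.2) were mainly AC genes. Cacna1a was at 168 CPM (150 to 187) and 175 (162 to 189) in AC, at 42.8 and 45.4 in BC, and at 5.68 to 14.8 in rods, cones and MG of the 2 libraries. Cacna1c was at 91.0 CPM (78.1 to 105) and 113 (102 to 124) in AC, at 16.5 and 17.1 in BC, and at 3.73 to 7.18 in rods, cones and MG. Both were uneven between AC clusters. In cluster 15, Cacna1a was at 20.7 CPM in each library against 243 and 251 in cluster 6, and Cacna1c at 18.4 and 13.4 against 133 and 165. Cacna1d showed no such gap, at 564 and 674 CPM in cluster 15 and 458 and 507 in cluster 6.

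Among the α2δ genes, Cacna2d4 was shared by photoreceptors and BC, Cacna2d1 and Cacna2d3 were BC, AC and HC genes, and Cacna2d2 was low in BC as a whole. Cacna2d4, which encodes the α2δ4 partner of Cav1.4, was at 492 CPM (478 to 506) and 520 (506 to 534) in BC, 450 (438 to 461) and 413 (403 to 424) in rods and 257 (234 to 282) and 249 (224 to 276) in cones, and these 3 types did not overlap. It was nearly even across the 10 BC clusters, with a 1.97-fold span in Ptbp1-Ctrl and 2.03-fold in Ptbp1-KO. In MG it was at 75.9 and 61.9 CPM, 16.9% and 15.0% of its rod level, again near the rod markers, and in AC at 102 and 87.6 CPM.

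Cacna2d1 and Cacna2d3 divided the BC clusters. Cacna2d1 encodes α2δ1, one of the proteins that gabapentin binds, and spanned 23.4-fold across BC clusters in Ptbp1-Ctrl and 21.4-fold in Ptbp1-KO. It peaked in cluster 18, at 1915 CPM (Ptbp1-Ctrl) and 1924 CPM (Ptbp1-KO), where Grik1, one of 6 OFF BC markers on the list, was at 10235 and 10232 CPM. Of the other markers Fezf2 was there at 134 and 161 CPM, and Neto1, Tacr3, Irx6 and Chrm2 at 0 to 26.9 CPM, whereas cluster 9 held Neto1 at 856 and 963 CPM and Tacr3 at 347 and 391. Next in Ptbp1-Ctrl came cluster 9, with 730 and 689 CPM in the 2 libraries and Grik1 at 3605 and 3086, and cluster 21, with 646 and 439 CPM and Grik1 at 3195 and 2177. In Ptbp1-KO cluster 11, at 490 CPM, stood above cluster 21. It was lowest in cluster 5, at 81.7 and 89.9 CPM, and cluster 10, at 97.6 and 110. AC held 149 and 155 CPM, mostly in cluster 6 (291 and 266), MG 51.1 and 57.6, cones 20.6 and 21.7, and rods 5.22 and 6.42.

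Cacna2d3, which encodes α2δ3, peaked where Cacna2d1 was lowest. It was at 1398 CPM (Ptbp1-Ctrl) and 1112 CPM (Ptbp1-KO) in cluster 5 and at 1874 and 1963 CPM in cluster 10, the clusters with the most Prkca, a rod BC marker, at 7011 and 6644 CPM in cluster 5 and 8030 and 8053 in cluster 10. The other 8 BC clusters held 168 to 588 CPM in Ptbp1-Ctrl and 178 to 633 in Ptbp1-KO. In AC it was concentrated in cluster 14, at 1171 and 1281 CPM, against 214 and 207 in cluster 6 and 27.6 and 70.3 in cluster 15. HC held 876 CPM (710 to 1068) and 1050 (766 to 1405) from 97 and 45 UMIs, which overlapped BC in Ptbp1-Ctrl and lay above BC in Ptbp1-KO. Rods held 15.3 and 18.5 CPM and cones 23.5 and 17.5. The rod level was 2.09% and 2.61% of that in BC, where BC markers in rods stood at 2.61% and 2.87%.

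**Figure D2:**
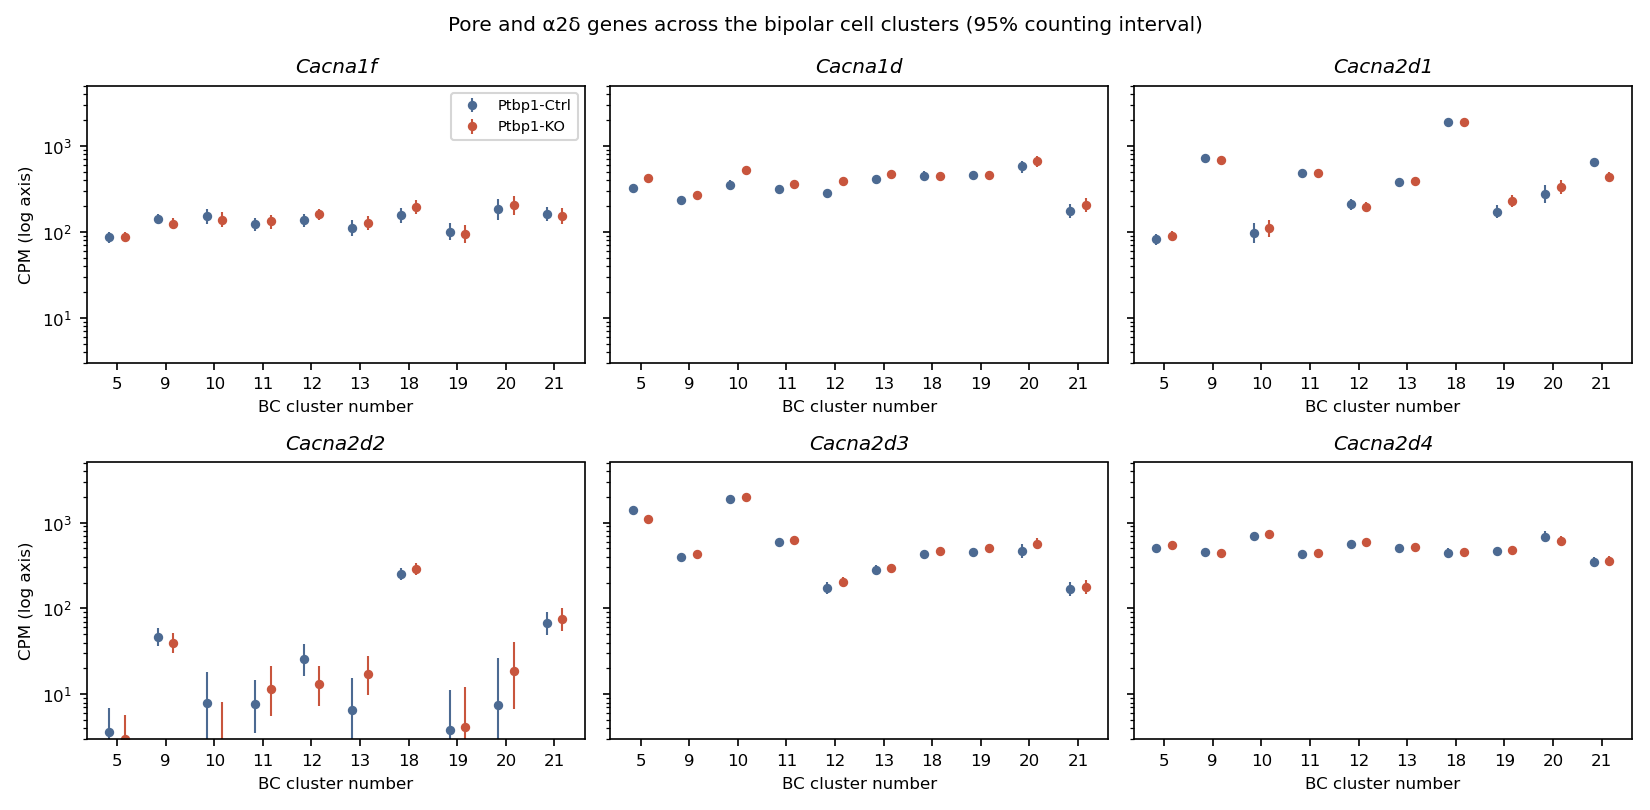
CPM (log axis) of 2 pore and 4 α2δ genes in the 10 deposited BC clusters with at least 20 cells in each library, with 95% Poisson intervals, Ptbp1-Ctrl in blue and Ptbp1-KO in red. Cacna2d1 and Cacna2d2 peaked in cluster 18 and Cacna2d3 in clusters 5 and 10, while Cacna2d4 stayed between 349 and 725 CPM.

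Cacna2d2, which encodes α2δ2, was at 33.1 CPM (29.6 to 36.9) and 32.3 (28.9 to 36.0) in BC, but cluster 18 alone held 252 and 289 CPM. It was next highest in cluster 21, at 67.3 and 75.2 CPM, and cluster 9, at 46.4 and 39.9. In Ptbp1-Ctrl these were also the 3 clusters with the most Cacna2d1. In AC it was mainly in cluster 6, at 90.4 and 134 CPM, against 17.9 and 21.7 in cluster 14 and 34.5 and 23.8 in cluster 15. Rods held 131 and 174 UMIs, the lowest level of the 5 large types, and cones 22.9 and 26.7 CPM.

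Cacnb2, which encodes the β2 subunit, was highest in rods in both libraries, at 2365 CPM (2338 to 2391) and 2225 (2201 to 2250). Cones held 945 and 748 CPM, BC 768 and 691, AC 523 and 429, and MG 304 and 208. The MG level was 12.9% and 9.37% of that in rods, under the 15.5% and 13.0% of rod markers, so it could not be told from rod RNA. Within rods it depended on the cluster. In Ptbp1-Ctrl, clusters 0, 1, 2 and 3 held 3370, 3015, 2097 and 747 CPM, and in Ptbp1-KO 2957, 2945, 1744 and 548.

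Cabp4, a calcium-binding protein that attaches to Cav1.4 and shifts its activation, was at 311 CPM (285 to 338) and 259 (233 to 287) in cones and 294 (285 to 304) and 237 (229 to 245) in rods, with no separation between them. BC held 62.8 and 39.7 CPM, or 21.3% and 16.7% of the rod level beside 15.3% and 14.2% for rod markers. Across rod clusters it ran the other way from Cacnb2, with 228, 218, 325 and 404 CPM in clusters 0, 1, 2 and 3 of Ptbp1-Ctrl and 184, 159, 287 and 348 in Ptbp1-KO. Median depth differed between these clusters too, at 936 and 884 UMIs in clusters 0 and 1 of Ptbp1-Ctrl and 1398 and 1431 in clusters 2 and 3, and the part of depth in either gradient was not tested.

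In the small types, the levels rest on few UMIs. RGC held Cacnb2 at 760 CPM (648 to 887) and 997 (857 to 1152), Cacna2d4 at 207 and 185, Cabp4 at 146 and 202 and Cacna1f at 65.7 and 109, all genes that rods also carried. They held Cacna2d1 at 127 and 125 CPM, Cacna2d2 at 122 and 114, Cacna1a at 117 and 103, Cacna1d at 93.9 and 65.4, Cacna2d3 at 75.1 and 76.2 and Cacna1c at 51.6 and 32.7. These 6 genes lay above their rod level in both libraries. HC held Cacna2d1 at 551 CPM (421 to 707) and 793 (549 to 1109), Cacna1a at 172 and 70.0, Cacnb2 at 271 and 233, and Cacna1d, Cacna1c, Cacna2d2, Cacna2d4 and Cabp4 on 0 to 5 UMIs per library.

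**Figure D3:**
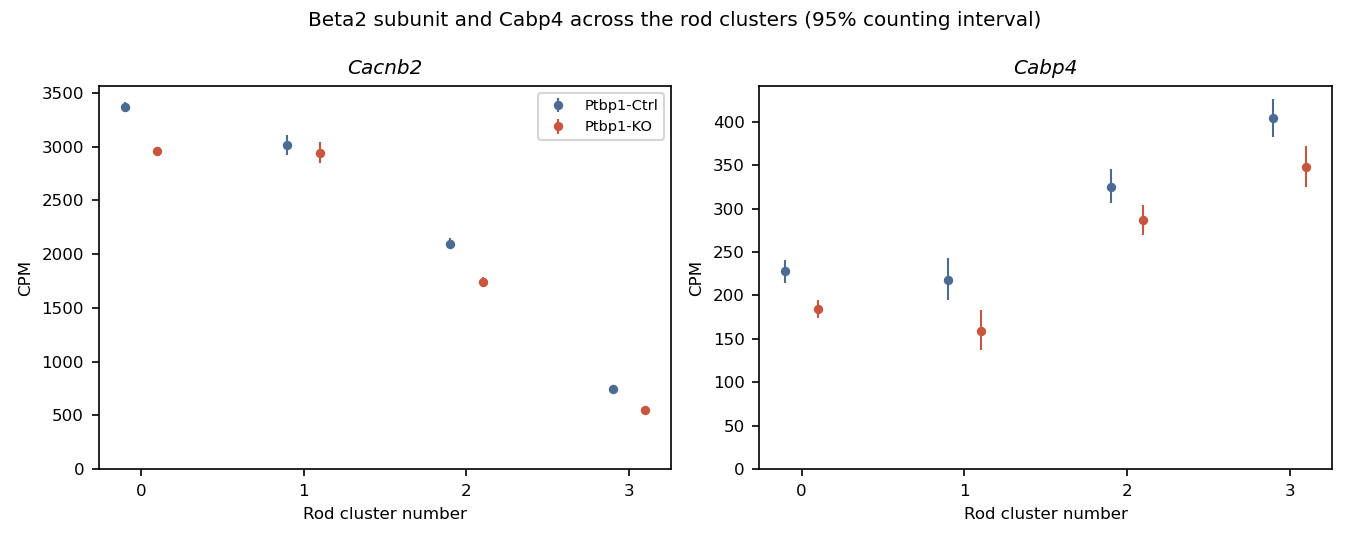
CPM of Cacnb2 and Cabp4 in the 4 rod clusters, with 95% Poisson intervals, on axes that start at 0. Cacnb2 went from 3370 CPM in cluster 0 to 747 in cluster 3 of Ptbp1-Ctrl, while Cabp4 went from 228 to 404. The Ptbp1-KO points lay below the Ptbp1-Ctrl points in each cluster, with overlapping intervals for Cacnb2 in cluster 1.

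To ask whether loss of Ptbp1 went with altered channel expression, each gene with at least 100 UMIs over both libraries in a type was compared as the log2 ratio of Ptbp1-KO over Ptbp1-Ctrl, and a ratio of at least 1.5-fold either way was counted as past the threshold. All 10 genes met the UMI minimum in rods, BC and AC, 9 in MG (all but Cacna1c) and 4 in cones (Cacna1f, Cacna2d4, Cacnb2 and Cabp4). In rods 2 of 10 were past 1.5-fold, both higher in the KO, against 6.69% of all 11120 genes (5.74% higher and 0.953% lower). In cones the count was 0 of 4, against 4.07% of all genes (2.21% higher and 1.86% lower). In BC it was 1 of 10, which was lower, against 3.27% (1.95% higher and 1.32% lower). In AC it was 0 of 10, against 3.68% (2.27% higher and 1.41% lower). In MG it was 2 of 9, both higher, against 4.96% (3.06% higher and 1.9% lower), with Cacna2d2 one of them by the choice of genes. The median log2 ratio of the genes compared was 0.27 in rods (0.05 over all genes), -0.15 in cones (-0.02), -0.00 in BC (0.01), -0.02 in AC (-0.00) and 0.03 in MG (-0.01). The MG median was -0.04 over the 8 genes other than Cacna2d2. In rods 7 of the 10 genes were higher in the KO. The 3 lower ones were Cacna2d4 (-0.12), Cacnb2 (-0.09) and Cabp4 (-0.31). Of the higher ones Cacna1f was at 0.19, and the others held only 4.53 to 18.5 CPM in rods.

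**Figure D4:**
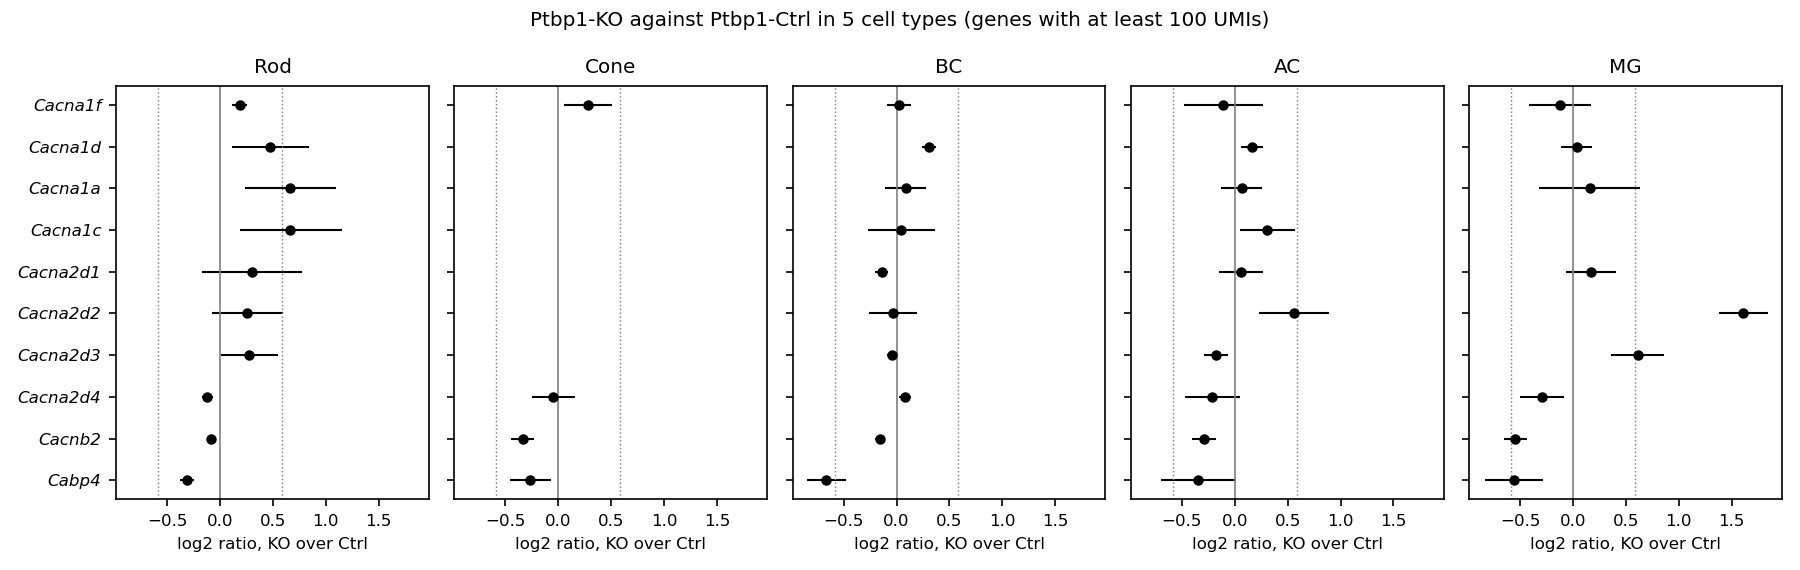
Log2 ratio of Ptbp1-KO over Ptbp1-Ctrl for each gene with at least 100 UMIs, in 5 cell types, with 95% counting intervals. The solid line marks no difference and the dotted lines 1.5-fold. Cacna2d2 in MG (1.61) lay apart from the other points, and Cabp4 in BC (-0.66) was the point farthest to the left.

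The genes past 1.5-fold in rods were Cacna1a and Cacna1c, both at low levels there. Cacna1a went from 74 UMIs (5.68 CPM) to 130 UMIs (8.97 CPM), a log2 ratio of 0.66 (0.24 to 1.09), and Cacna1c from 59 UMIs (4.53 CPM) to 104 UMIs (7.18 CPM), a log2 ratio of 0.67 (0.19 to 1.15). After TMM scaling their log2 ratios were both 0.57, and with rod clusters weighted alike in both libraries 0.55 and 0.57, just under 1.5-fold. After thinning each cell to 1000 UMIs they were 1.01 and 0.50, on 90 and 72 UMIs, fewer than the minimum of 100. Of the rod genes past 1.5-fold, 85.7% were higher in the KO, and 72.7% under TMM scaling. In cones, where no channel gene was past it, the split was 54.2% and 42.5%. Cacna1f, the main rod pore, had a log2 ratio of 0.19 (0.12 to 0.26) in rods and 0.28 (0.05 to 0.51) in cones.

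Cacna1d was higher in the KO in BC, with a log2 ratio of 0.31 (0.24 to 0.37), and in AC, with 0.16 (0.05 to 0.27). In BC it was higher in 9 of 10 clusters, from 0.00 to 0.59, and at -0.02 (-0.27 to 0.23) in cluster 18. The ratios were largest in clusters 10, 12 and 5, at 0.59, 0.48 and 0.42. In MG it was 0.03 (-0.11 to 0.18).

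Cacna2d3 in BC had a log2 ratio of -0.04 (-0.09 to 0.01). Cluster 5 alone was lower in the KO, at -0.33 (-0.40 to -0.26), whereas the other 9 clusters were at 0.05 to 0.28, cluster 10 among them with 0.07 (-0.05 to 0.18). In AC the pooled ratio was -0.18 (-0.29 to -0.07), but it was 0.12 once AC clusters were weighted alike, with -0.05 in cluster 6 and 0.13 in cluster 14, while cluster 15 held 27.6 CPM (14.3 to 48.3) and 70.3 (54.6 to 89.1) on 12 and 68 UMIs. Cluster 14, which held most Cacna2d3, made up 33.0% of AC in Ptbp1-Ctrl and 22.6% in Ptbp1-KO. Cacna2d1 in BC was at -0.14 (-0.20 to -0.08), with cluster 21 lowest at -0.56 (-0.79 to -0.33) and cluster 19 highest at 0.42 (0.09 to 0.76).

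Cacnb2 and Cabp4 were lower in the KO in all 5 types, except that Cacnb2 in rods turned to 0.03 after thinning, and Cabp4 in AC to 0.02 after thinning and 0.22 after subtracting rod RNA. The log2 ratios of Cacnb2 were -0.09 in rods, -0.34 in cones, -0.15 in BC, -0.29 in AC and -0.55 in MG. Those of Cabp4 were -0.31 in rods (-0.38 to -0.25), -0.26 in cones (-0.46 to -0.07), -0.66 in BC (-0.85 to -0.48), -0.35 in AC (-0.70 to 0.01) and -0.55 in MG (-0.83 to -0.28). BC was the one type in which Cabp4 was past 1.5-fold, at 0.631 of the Ptbp1-Ctrl level. Rod markers were lower in the KO beside it, at 15.3% and 14.2% of their rod level in BC, 17.7% and 16.5% in AC and 15.5% and 13.0% in MG. In cones they were not lower, at 24.1% and 24.8%. Subtraction of rod RNA moved the Cabp4 ratio in BC to -1.59, and thinning moved it to -0.57, just under 1.5-fold. Cabp4 in AC, at 56.7 and 44.6 CPM, was 19.3% and 18.8% of its rod level, and in MG, at 51.6 and 35.2 CPM, 17.5% and 14.8%, both near the rod markers. The part of rod RNA in the AC and MG ratios of these genes was not tested further. Within each of the 4 rod clusters both genes were lower in the KO, with log2 ratios of -0.03 to -0.45 for Cacnb2 and -0.18 to -0.46 for Cabp4. The interval of Cacnb2 spanned 0 in cluster 1, at -0.03 (-0.10 to 0.03). Clusters 0 and 3 made up 45.9% and 18.2% of rods in Ptbp1-Ctrl and 58.7% and 10.5% in Ptbp1-KO, and with clusters weighted alike the rod ratios were -0.20 for Cacnb2 and -0.25 for Cabp4.

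Cacna2d4 had log2 ratios of 0.08 (0.02 to 0.14) in BC, -0.12 (-0.17 to -0.07) in rods, -0.05 (-0.25 to 0.16) in cones and -0.22 (-0.47 to 0.04) in AC. The ratio turned to 0.10 in cones with the mean of CPM per cell, and to 0.25 in AC after thinning. In MG it was -0.29 (-0.50 to -0.08), at a level near that of rod RNA. There it ran from -0.72 after thinning to 0.42 after subtraction of rod RNA. Cacna1c in AC was at 0.31 (0.05 to 0.57), and Cacna1a in AC at 0.06 (-0.13 to 0.26).

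In MG, Cacna2d2 was at 36.4 CPM (31.7 to 41.6) from 215 UMIs in Ptbp1-Ctrl and at 110.9 CPM (102 to 120) from 564 UMIs in Ptbp1-KO. The log2 ratio was 1.61 (1.38 to 1.84). Cells with a UMI made up 11.3% (9.88% to 12.9%) of 1720 MG and 36.2% (33.5% to 39.0%) of 1184 MG, and with each cell thinned to 1000 UMIs 4.15% (3.24% to 5.22%) and 11.1% (9.34% to 13.0%). In thinned rods, which held little Cacna2d2, the shares were 0.779% and 1.18%, at median depths of 1088 and 1288 UMIs before thinning against 3333 and 4178 in MG. Most positive MG held a single UMI. Cells with 2 UMIs made up 0.988% of MG in Ptbp1-Ctrl and 7.69% in Ptbp1-KO, and cells with 3 or more 0.0581% and 1.69%.

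The MG level in the KO was above that of every neuron type compared in the same library (26.7 CPM in cones, 32.3 in BC and 78.3 in AC, with rods lower still), and overlapped the 114 CPM (70.8 to 175) of RGC. All 3 MG clusters were higher in the KO, at 35.5 and 114 CPM in cluster 4, 48.6 and 139 in cluster 16 and 36.3 and 56.2 in cluster 22, and the intervals overlapped in cluster 22. In AC the log2 ratio of Cacna2d2 was 0.56 (0.23 to 0.89), or 0.14 after thinning, and in cluster 6, where most of it was, 0.57 (0.20 to 0.96). In BC it was -0.03 (-0.26 to 0.19). Of the 18 genes within 500 kb of Cacna2d2 with at least 100 UMIs in MG, 7 were higher and 11 lower in the KO, with a median log2 ratio of -0.04, and Nprl2 (0.60) and Gm38134 (0.77) were past 1.5-fold. Of all MG genes 48.8% were higher, 4.96% were past 1.5-fold and 3.06% were past it upward.

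**Figure D5:**
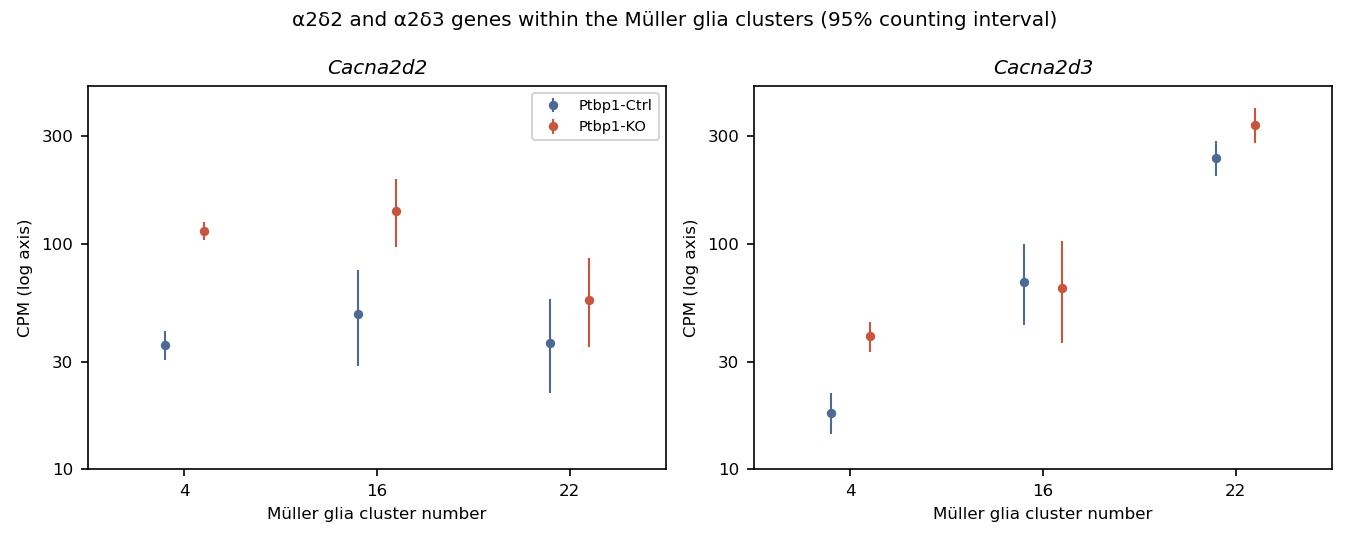
CPM (log axis) of Cacna2d2 and Cacna2d3 in the 3 MG clusters, with 95% Poisson intervals, Ptbp1-Ctrl in blue and Ptbp1-KO in red. Cacna2d2 was higher in Ptbp1-KO in each cluster, with overlapping intervals in cluster 22, and Cacna2d3 was higher in clusters 4 and 22 and level in cluster 16.

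Cacna2d3 was the other α2δ gene past 1.5-fold in MG, at 40.5 CPM (35.5 to 45.9) from 239 UMIs and 61.7 (55.1 to 69.0) from 314 UMIs, a log2 ratio of 0.61 (0.36 to 0.86). Its levels were 5.55% and 8.71% of those in BC, where BC markers in MG stood at 5.50% and 4.89%. In cluster 4 it was at 17.8 and 38.8 CPM, a log2 ratio of 1.13 (0.75 to 1.51), and in cluster 22 at 239 and 335 CPM, a log2 ratio of 0.49 (0.12 to 0.86). Cluster 16 held 67.4 and 63.6 CPM. Cluster 22, with 89 and 54 cells, supplied 125 of the MG UMIs in each library, at median depths of 6076 and 7127 UMIs. The pooled ratio was under 1.5-fold, at 0.54, when taken as the mean of CPM per cell. Ptbp2, the paralog of Ptbp1, was at 203 CPM (192 to 215) and 308 (293 to 324) in MG.

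The remaining subunit genes of the family were read from a list of 17, which holds the N-, R- and T-type pores, Cacna1s, the β1, β3 and β4 genes and the γ genes. Of those with at least 100 UMIs, 2 of 2 were higher in the KO in rods, 4 of 9 in BC, 4 of 11 in AC and 4 of 4 in MG, where 60.0%, 52.0%, 49.6% and 48.8% of all genes were higher. Cacnb4 in rods, at 3.07 and 5.73 CPM with a log2 ratio of 0.90 (0.34 to 1.48), was the one past 1.5-fold (6.69% of all rod genes). Cacnb4 was highest in AC (320 and 353 CPM), Cacng3 also in AC (212 and 192 CPM), and Cacng4 in MG (200 and 202 CPM). The list medians were -0.06 in BC, -0.06 in AC and 0.28 in MG, against 0.01, -0.00 and -0.01 over all genes.

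Genes whose products bind or anchor the channels, a list of 18 with active zone scaffolds such as Erc1 and regulators such as the adaptor Stac2, had 7 of 13 higher in rods, 4 of 9 in cones, 6 of 16 in BC, 8 of 14 in AC and 2 of 13 in MG. Over all genes the shares were 60.0%, 46.8%, 52.0%, 49.6% and 48.8%. The list median in MG was -0.18, against -0.01 over all genes. Rod markers in MG stood at 15.5% and 13.0% of their rod level, and the part of rod RNA in this median was not tested. Past 1.5-fold were 1 of 13 in rods and 1 of 13 in MG, against 6.69% and 4.96% of all genes. They were Erc1 in rods, with 26 and 84 UMIs (1.99 and 5.80 CPM) and a log2 ratio of 1.54 (0.89 to 2.23), and Stac2 in MG, with 63.8 and 40.3 CPM and -0.66 (-0.92 to -0.41). Rims2 (2865 and 2907 CPM) and Unc119 (2742 and 2467 CPM) were the most abundant of them, both in rods. Among 10 calcium pumps and exchangers, 3 of 7 were higher in rods, 2 of 5 in cones, 5 of 9 in BC, 6 of 8 in AC and 3 of 8 in MG, against the same shares of all genes. Slc24a2 in rods, at 3.91 and 6.55 CPM, was the one past 1.5-fold, or 1 of 7 against 6.69%. Slc24a1, the rod sodium, calcium and potassium exchanger, was at 1424 and 1223 CPM in rods, Atp2b1 at 1027 and 1011 in BC, and Slc24a2 at 594 and 654 in cones.

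The genes whose levels followed each channel gene most closely were found by Pearson correlation of log2(CPM + 10) over 21 clusters in both libraries, 42 points that share library and depth, among 12099 genes. Cacna2d4 was followed by Otx2 (r = 0.95), a transcription factor of photoreceptors and BC, and by Gm49156 and Otx2os1. Cabp4 was followed by Prcd, Aipl1 and Guca1a (r = 0.97 each), all photoreceptor genes, and Cacna1f by Fyco1, Rasgrf2 and Eps8 (r = 0.89 to 0.91). Cacna1d was followed by Fry, Aatk and Igsf8 (r = 0.97 each), Cacnb2 by Ppp2r2b, Kdm4c and Gbf1 (r = 0.90 to 0.93), Cacna1a by Ly6h, Pnck and Pde3a (r = 0.88 to 0.89) and Cacna1c by Nrxn2, Astn2 and Nptxr (r = 0.84 to 0.86). For the α2δ genes they were Cd200, Hap1 and Gabrb2 for Cacna2d1 (r = 0.90 to 0.91), Cadps2, Ctnna3 and Il1rapl1 for Cacna2d2 (r = 0.83 to 0.86), and Bdnf, Dgki and 1700111E14Rik for Cacna2d3 (r = 0.91 to 0.92). Among the channel genes themselves, Cacna1f went with Cacnb2 (r = 0.86) and Cacna2d4 (r = 0.78), and Cacna1d with Cacna2d3 (r = 0.81).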

How the data were processed

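Retinas of 1 mouse per genotype were dissociated with papain and profiled with the 10x Genomics 3′ v3.1 kit. The authors aligned reads to mm10 with Cell Ranger 7.0.1 and filtered cells in Seurat 4 (genes above 200 and below 5000, UMIs above 700 and below 10000, mitochondrial UMIs under 20 percent, as the deposited percent column gives them), and all 30943 cells met this. The deposited table holds raw UMI counts. The annotation, intron counting, strand use and doublet treatment were not given in the sources used here. Clusters and cell types were the authors' own.

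UMIs were summed per library and cell type and expressed as CPM with exact Poisson intervals. Log2 ratios have exact conditional binomial intervals and shares Clopper-Pearson intervals. No test was run, since each genotype had a single library. Code was tested on simulated data. Genes named were the 10 channel genes, members of 3 gene lists past 1.5-fold or among the 3 of highest CPM, the 3 genes most correlated with each channel gene, and all 18 genes near Cacna2d2, which are given as counts with only those past 1.5-fold by name. Of the list genes this rule names, 1 is not reported here. These genes and lists were chosen with earlier results of these data known. Alternatives were TMM scaling, thinning to 1000 UMIs, the mean of CPM per cell, subtraction of rod RNA (the median rod-marker share times the rod level), clusters weighted alike, leaving out the 6% of cells with the highest Scrublet score, and other UMI or fold minimums. Clusters weighted alike means that each cluster with at least 20 cells per library had the same weight in both libraries. That weight was the cluster's share of the UMIs of both libraries, so it differed between clusters. Scrublet's own threshold marked 0 cells in each library and did not work here, hence the fixed share. Python 3.11.15, scanpy 1.11.5, R 4.3.3 and edgeR 4.0.16 (TMM factors only) were used, with positions from GENCODE vM21 on GRCm38.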

Additional observations from a re-analysis of the deposited data

Results flagged for a closer look

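A pair of channel genes had counting intervals on opposite sides of 0 in different cell types. The difference between types was not tested, as there was 1 library per genotype. Cacna2d3 had a log2 ratio of Ptbp1-KO over Ptbp1-Ctrl of 0.28 (0.007 to 0.55) in rods and 0.61 in MG but -0.18 in AC, where the sign was reversed at 0.12 once clusters were weighted alike. In rods its level was 2.09% and 2.61% of that in BC, where BC markers in rods stood at 2.61% and 2.87%. Cacna2d4 had a log2 ratio of 0.081 (0.02 to 0.14) in BC but -0.12 in rods and -0.29 in MG, and in MG it turned to 0.42 after subtraction of rod RNA. The lowest alternatives were 0.18 for Cacna2d3 in rods and 0.05 for Cacna2d4 in BC.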

How the results depend on the processing

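No paired analysis was possible because each genotype had 1 library. The log2 ratio of Cacna2d2 in MG was 1.43 to 1.71 over the 7 alternatives. The count past 1.5-fold in rods, 2 of 10, became 0 under TMM scaling, with cells thinned to 1000 UMIs, with clusters weighted alike, with a minimum of 400 UMIs and with 2-fold as the threshold. Cacna1a and Cacna1c kept log2 ratios of 0.55 to 1.01 and 0.50 to 0.79, and with thinned cells Cacna1a was at 1.01 and lost the call to the minimum of 100 UMIs alone. In cones the count of 0 became 1 after subtraction of rod RNA (Cacnb2) and with a minimum of 20 UMIs (Cacna1a). In BC the count of 1 became 0 with thinned cells (Cabp4 at -0.57) and with 2-fold. In AC the count of 0 became 1 with the mean of CPM per cell (Cacna2d2) and 2 after subtraction of rod RNA (Cacna1f and Cacnb2). Before subtraction these 2 genes stood in AC at 21.1% and 17.2% (Cacna1f) and 22.1% and 19.3% (Cacnb2) of their rod level. Rod markers there stood at 17.7% and 16.5%, so little was left above rod RNA. In MG the count of 2 became 1 with 2-fold and was 2 or 3 otherwise, but not always from the same genes. Cacna2d3 was under 1.5-fold with the mean of CPM per cell (0.54), and Cacna2d4 was past it downward after thinning (-0.72). The cause of these shifts was not tested, beyond the fewer genes that pass with thinned cells or a higher minimum. Of 43 log2 ratios, 42 kept their direction under TMM scaling, 31 with thinned cells, 38 with the mean of CPM per cell, 40 with clusters weighted alike, 40 without the highest Scrublet scores, and 43 without the cells whose barcode both libraries shared, an alternative added after the data were seen. After subtraction of rod RNA 40 of 42 did, as Cacnb2 in MG had nothing left above rod RNA. In the cones, with 632 and 439 cells, only 4 of 10 genes reached 100 UMIs, and in rods the ratios of Cacna1a and Cacna1c rest on 59 to 130 UMIs per library.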
